A study of Mus musculus with 120 samples.

Results

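The Clec genes were the rows of both count tables whose symbol is Clec, a number, letters and at most one more number, which gave 34 of the 55487 genes that the tables share. They were measured by bulk RNA sequencing of subcutaneous polycaprolactone scaffolds, called immunological niches (INs), which fill with immune and stromal cells and were explanted repeatedly and replaced in female mice. NOR mice, a nondiabetic strain that shares the diabetogenic H2g7 haplotype with NOD, gave 23 samples at 6 (n = 4), 10 (n = 5), 14 (n = 5), 18 (n = 4) and 22 (n = 5) weeks of age. NOD mice that did not become hyperglycemic (nonprogressors) gave 11 samples at 6 weeks, 4 at 10, 10 at 14, 4 at 18 and 4 at 22 weeks, and another 6 that are labelled only by days after implantation. NOD mice that became hyperglycemic (progressors) gave 10 samples when 6 weeks old, 8 taken 7 weeks ahead of onset (−7), and 10 each at −5, −3 and −1 weeks and at onset. All mice carried the scaffolds and received the analgesic carprofen and anesthesia around each surgery, per the study's methods. The same mice were biopsied over time, so samples of a group are separate animals but groups share animals. Time before onset was assigned after the fact, and age and closeness to onset cannot be told apart within the progressors. Per the study's methods, biopsies began at 6 weeks of age, and each removed scaffold was replaced in the same site. The 6-week samples are thus from first implants, while later samples follow repeated surgery and replacement. Engraftment time and repeated surgery therefore cannot be told apart from age in any comparison with 6 weeks. Batch 1 held 74 samples, all NOR samples among them, and batch 2 held 46, with every −7 sample.

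C-type lectins are membrane or secreted proteins that carry a fold first found in calcium-dependent sugar-binding proteins. In myeloid cells, receptors such as dectin-1 (Clec7a), dectin-2 (Clec4n) and Mincle (Clec4e) read fungal and bacterial glycans or products of damaged cells and signal through Syk and Card9, while others, such as Dcir (Clec4a2) and Clec12a, carry inhibitory motifs that recruit phosphatases. The Clr proteins (Clec2 genes) are ligands of the NKR-P1 receptors (Klrb1 genes) of natural killer cells, and a further group acts in endothelium, bone or matrix. Most mouse Clec genes lie in the natural killer gene complex and its neighbours, and 26 of the 34 were on chromosome 6 of GRCm38.

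The 250 bases before the start were read for the members with an entry in the RefSeq promoter table (GRCm38.p6), which were 26 of 34. Windows are printed for Clec2g, which was higher in every NOD than in every NOR mouse, and for Clec7a, Clec11a and Clec16a, which moved with time. Capitals mark GAGGAA or its reverse complement TTCCTC, letters that the myeloid factor PU.1 of the ETS family can recognize. Shorter or other sequences that ETS-family factors bind were not marked or counted.
Clec2g, chr6:128934131-128934380, plus strand: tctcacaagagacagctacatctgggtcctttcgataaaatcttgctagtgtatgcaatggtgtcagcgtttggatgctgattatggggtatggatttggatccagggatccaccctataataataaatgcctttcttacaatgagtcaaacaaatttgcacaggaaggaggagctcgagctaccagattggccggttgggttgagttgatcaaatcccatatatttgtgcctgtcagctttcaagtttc
Clec7a, chr6:129472780-129473029, minus strand: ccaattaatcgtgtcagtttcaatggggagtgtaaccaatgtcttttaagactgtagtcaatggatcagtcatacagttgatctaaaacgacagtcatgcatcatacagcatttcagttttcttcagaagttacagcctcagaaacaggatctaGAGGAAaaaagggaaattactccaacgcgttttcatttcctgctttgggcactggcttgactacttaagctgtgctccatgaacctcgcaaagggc
Clec11a, chr7:44306960-44307209, minus strand: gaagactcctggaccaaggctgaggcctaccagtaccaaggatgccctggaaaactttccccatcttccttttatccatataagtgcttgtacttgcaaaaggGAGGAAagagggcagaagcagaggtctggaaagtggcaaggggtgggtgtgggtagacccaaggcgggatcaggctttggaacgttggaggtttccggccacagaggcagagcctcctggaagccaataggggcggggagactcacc
Clec16a, chr16:10545089-10545338, plus strand: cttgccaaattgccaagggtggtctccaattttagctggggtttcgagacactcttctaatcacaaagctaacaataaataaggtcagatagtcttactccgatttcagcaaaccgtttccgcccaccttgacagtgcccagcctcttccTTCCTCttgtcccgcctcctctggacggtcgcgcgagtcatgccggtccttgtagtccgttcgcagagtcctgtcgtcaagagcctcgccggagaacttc
These letters, on either strand, were in the windows of 14 of the 26 members (53.8%), and in those of 25.9% of 27025 genes. They were in the windows printed for Clec7a, Clec11a and Clec16a and not in that of Clec2g. The letters TATAAA or their reverse complement TTTATA were in the windows of 7 members (26.9%) and of 14.3% of all genes. Some members arose by duplication and so share sequence. No window was used for Clec10a, Clec1a, Clec2f, Clec2j, Clec3a, Clec3b, Clec4a4 or Clec4n.

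The median depth was 30186412 counts in batch 1 (range 4722396 to 56185434) and 36440355 counts in batch 2 (range 29029239 to 43880986), of which the Clec genes together held 461 to 38993. The lowest of these was the 18-week library of NOR mouse 5, of whose counts 85.7% fell on 1 gene, which left 1233373 counts. Another NOR library of that age, from mouse 4, stood apart in the opposite way, with a summed Clec level of 1132 CPM (counts per 1000000 after TMM scaling) against 376 to 923 CPM in the other samples. The 4 nonprogressor libraries of 22 weeks had 12.8 to 30.5% of their counts on Rn7s2, a 7S RNA, where the most abundant gene took 4.89 to 8.64% in NOR at 22 weeks and 2.08 to 4.43% in nonprogressors at 6 weeks. Results that rest on these libraries are given with and without them below. Marker genes of macrophages (6 genes) summed to 1337 to 3437 CPM over the 120 samples and those of fibroblasts (6 genes) to 4347 to 70079 CPM, so both cell types were present in every sample. In bulk samples, fewer cells of a type and less RNA per cell cannot be told apart.

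Of the 34 members, 26 had enough counts to be tested in some comparison. Clec2e, Clec2h, Clec2m and the pseudogene Clec2j of the Clr group, Clec3a and Clec18a (secreted proteins), Clec4b2 and the Kupffer cell receptor Clec4f were never tested, and had 2 to 91 counts each over all 120 samples. Per kilobase of exon, the median level over all samples was highest for Clec2d (Clr-b, the ligand by which healthy cells quiet natural killer cells) at 60.1 CPM per kb, followed by Clec7a at 39.8 and Clec3b (tetranectin, a plasminogen-binding matrix protein) at 32.2. The ranges of these 3 over samples overlapped, from 12.98 to 131 for Clec2d, 18.6 to 87.6 for Clec7a and 0.628 to 163 for Clec3b. Clec4d (MCL, the partner of Mincle) had 18.6 CPM per kb, and 11 members had medians between 2.67 and 12.5, which were Clec4a1, Clec4a3, Clec16a, Clec4n, Clec4e, Clec4a2, Clec10a, Clec12a, Clec5a, Clec11a and Clec14a. A further 11 lay under 1 CPM per kb, from Clec2i at 0.941 to Clec4g (LSECtin) at 0.0219. Between them were Clec9a, Clec4b1, Clec1a, Clec2g, Clec2f, Clec1b, Clec2l, Clec12b and Clec4a4. The defining lectin of Kupffer cells, Clec4f, was thus close to 0. The levels of the other members did not sort by role. Clec7a and the activating receptor Clec4d were high, but the Dcir-group members Clec4a1 (12.5) and Clec4a3 (11.4) lay above the activating Clec4n (8.69) and Clec4e (8.49). Clec16a varied least among the well expressed members, with 59.3 to 137 CPM, and Clec3b varied most, with 0.623 to 162 CPM.

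**Figure D1:**
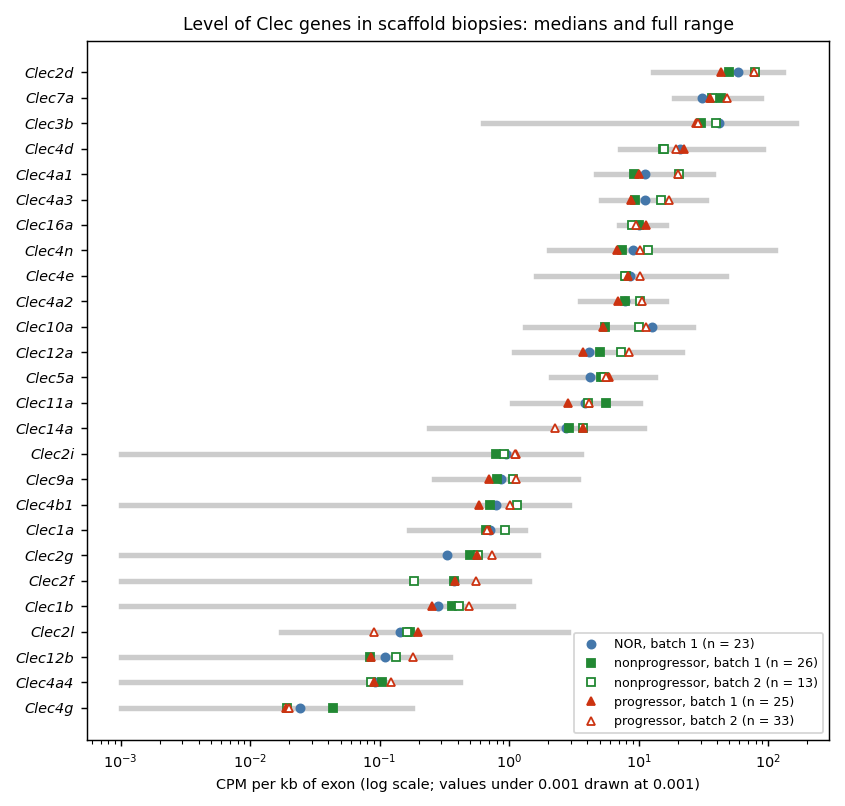
Level of the 26 members with a median above 0, in CPM per kilobase of exon on a log scale; symbols are medians of each condition and batch and grey bars span the lowest to the highest of 120 samples. Clec2d, Clec7a and Clec3b are at the top and Clec4g at the bottom, and the bar of Clec3b reaches down to 0.628.

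NOD and NOR were compared in batch 1 over summed biopsies of each mouse (5 NOR mice, 4 nonprogressors and 5 progressors), which asks which genes separate the at-risk strain from its control. The biopsies summed were not matched in time. NOR mice 2 and 3 each lacked an age, progressors were timed by onset, and deeper libraries weighed more in the sums. The part of this in the strain differences was not tested. Clec10a, Clec4n and Clec4a3 were lower in NOD and Clec2g and Clec2l were higher. That is 5 of 26 members tested, against 8.98% of all 23387 genes tested. Of all genes 3.87% were higher in NOD and 5.11% lower, and the median log2 difference of the members was −0.19, beside −0.00161 for all genes. By role, the called members were a glycan uptake receptor, an activating and a Dcir-group member of the dectin-2 region and a pair of Clr genes. None of the 3 tested endothelial or secreted members and none of the 6 of the dectin-1 region passed. Differences between roles were not tested. DESeq2 called 7 members, and 5 passed without the 18-week library of NOR mouse 5. Of the 6 macrophage markers 4 were lower in NOD (median log2 difference −0.31), with summed levels of 1924 to 2413 CPM in NOD and 2300 to 2625 CPM in NOR mice. Of the 6 mast cell markers 4 were lower (median −1.42), with sums of 10.5 to 32.3 and 27.7 to 77.0 CPM. The part of these cells in the differences below was not tested.

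Clec10a (Mgl1, a galactose and N-acetylgalactosamine receptor of macrophages and dendritic cells) had 42.0, 31.2, 36.2, 21.9 and 39.8 CPM in the 5 NOR mice and 13.1 to 25.8 CPM in the 9 NOD mice (median 16.7). Of the NOD mice, 8 lay below every NOR mouse and only progressor 2, at 25.8 CPM, overlapped with them. The log2 difference was −1.01 ± 0.17 (SE, adjusted p = 0.00153, edgeR's quasi-likelihood test). By age in batch 1, NOR samples had 24.8 ± 12.8 CPM at 6 weeks (SD, n = 4) and 61.7 ± 12.3 at 22 weeks (n = 5), and nonprogressors had 15.5 ± 5.72 and 12.3 ± 1.47 (n = 4 each). The 22-week samples did not overlap, with 49.5 to 75.6 CPM in NOR and 10.9 to 13.7 CPM in nonprogressors, whose 22-week libraries are those with the high share of Rn7s2. Without those libraries the difference between strains was −0.98 (adjusted p = 0.00197). With 6-week samples alone the log2 difference was −0.41 and did not pass (adjusted p = 0.676). Clec10a has a close copy, Mgl2, next to it on the chromosome, and Mgl2 differed the other way, with 1.86 to 4.42 CPM in NOR mice and 6.30 to 19.1 CPM in NOD mice (log2 difference 2.10 ± 0.25, adjusted p = 4.62e-05). How the authors' counting split reads between the copies in either strain was not tested, and the levels of both are uncertain for that reason.

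Clec2g, a member of the Clr ligand family, had 0.899, 0.740, 0.771, 1.02 and 0.643 CPM in the NOR mice and 1.09 to 1.98 CPM in the NOD mice (median 1.35). The strains did not overlap. The Clr genes of chromosome 6 are near copies of each other, and reads of both strains were aligned to the reference genome of another strain, so how reads were split among Clec2g, Clec2i and Clec2f is uncertain. The log2 difference was 0.86 ± 0.16 (adjusted p = 0.00276), and with 6-week samples alone it was 0.27 (adjusted p = 0.755). In NOR samples the level was 1.41 ± 0.397 CPM at 6 weeks (n = 4) and 0.549 ± 0.247 at 10 weeks (n = 5). Clec10a and Clec2g passed in every other alternative that was run for this comparison.

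Clec4a3 (a Dcir homolog) had 12.98 to 15.3 CPM in NOR mice (median 13.7) and 9.27 to 12.93 CPM in NOD mice (median 11.6). Its strains did not overlap either, though the difference was small, at −0.30 ± 0.08 (adjusted p = 0.0245). Clec2l, a low and mainly neural Clr-like gene, had 0.124 to 0.262 CPM in NOR and 0.204 to 0.411 CPM in NOD mice, a log2 difference of 0.69 ± 0.20 (adjusted p = 0.0452). Clec2l did not pass in 14 of 22 other settings (adjusted p up to 0.209), nor Clec4a3 in 5 of 24 (up to 0.609). Clec4n (dectin-2, a receptor for mannose-rich glycans) had 11.8, 16.8, 18.8, 34.5 and 12.4 CPM in the 5 NOR mice and 7.88 to 14.8 CPM in the NOD mice. Its difference was −0.83 ± 0.23 (adjusted p = 0.0391), and it rested on NOR mouse 4. Without that mouse it was −0.50 (adjusted p = 0.131), and without only its 18-week library it was −0.40 (adjusted p = 0.206). Without that library 5 members still passed, with Clec5a (a DAP12-coupled myeloid receptor, 0.41, adjusted p = 0.0124) in place of Clec4n. Without the 22-week nonprogressor libraries 4 passed, and Clec4n did not (adjusted p = 0.0504). When 1 mouse at a time was left out, 2 to 5 members passed, with Clec10a and Clec2g among them each time. The count was 2 without NOR 3, and 3 without NOR 1, NOR 2, progressor 4 or nonprogressor 1, 2 or 4.

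That library, from NOR mouse 4 at 18 weeks, had 159 CPM of Clec4n. The other 3 of its age had 6.06 (mouse 5, the library with few counts), 9.96 and 12.3 CPM. The library of mouse 4 also had 235 CPM of Clec4e and 146 CPM of Clec4d. Its marker genes of neutrophils (6 genes) summed to 338 CPM, against 5.05 to 49.6 CPM in the other NOR samples. These values moved together in 1 library, and the part of neutrophils in the Clec4n difference was not tested.

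**Figure D2:**
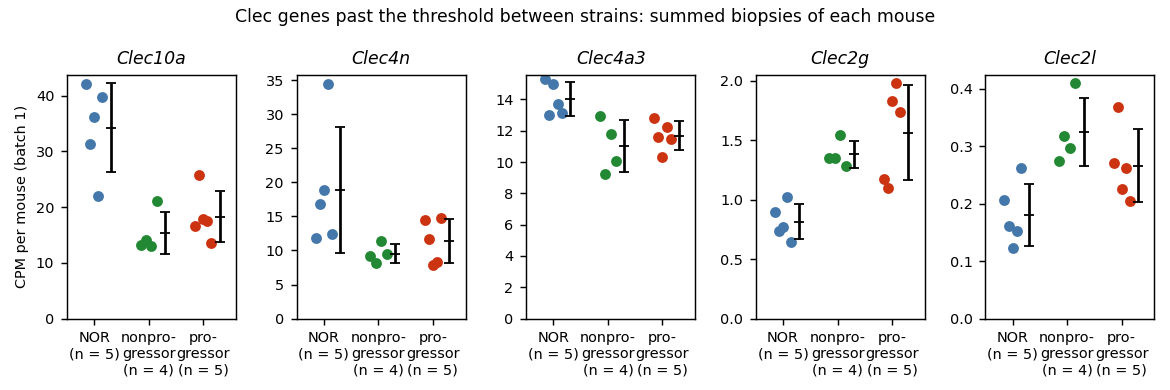
CPM per mouse in batch 1 of the 5 members past the threshold between NOD and NOR; points are mice and bars are mean ± SD (5 NOR mice, 4 nonprogressors, 5 progressors). Clec4a3 and Clec2g do not overlap between strains, and a single NOR mouse at 34.5 CPM stands above the rest for Clec4n.

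At 6 weeks of age, progressors (n = 10) were compared with nonprogressors (n = 11), with batch as a covariate, to ask whether the mice differed before disease. None of the 22 members tested passed the edgeR threshold and neither did any other gene, a background of 0 percent of 19082 genes. At an unadjusted p under 0.05 there was 1 member, and DESeq2 called 0. Here and below, all genes were not counted at that unadjusted level, so such counts have no background. The 1 member was Clec12a (an inhibitory receptor for uric acid crystals on myeloid cells), with a log2 difference of −0.38 and an adjusted p of 0.891. In batch 1 it had 29.4 to 68.3 CPM in nonprogressors and 19.2 to 40.1 CPM in progressors. In batch 2 it had 23.4 to 51.4 CPM and 26.7 to 41.9 CPM. The groups overlapped in both batches.

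Change with age in NOR, along with engraftment time and repeated surgery, served as a control for time without disease. When 10 to 22 weeks together were compared with 6 weeks, none of 22 members passed, beside 0.0357% of 19628 genes. With an unadjusted p under 0.05 there were 4, a count without a background, and DESeq2 called 0. A test for any difference among the 5 ages, which allows rises and falls, called 5 of 22 members (8.24% of all genes tested), which were Clec12a, Clec11a, Clec2f, Clec1b and Clec2g. DESeq2 called 9.

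In NOR, Clec12a had its highest level at 10 weeks, at 40.7 to 73.2 CPM (median 59.5, n = 5), and the lowest at 22 weeks, at 6.08 to 13.6 CPM (median 9.35, n = 5). At 6 weeks it had 19.2 to 54.8 CPM (n = 4), at 14 weeks 20.4 to 43.5 CPM (n = 5) and at 18 weeks 6.06 to 18.4 CPM (n = 4). Without the 18-week library of mouse 5, the 18-week range was 14.5 to 18.4 CPM. The 10-week samples lay above all those of 18 and 22 weeks (adjusted p over the ages 9.65e-05, edgeR's quasi-likelihood test). Clec1b (CLEC-2, the podoplanin receptor of platelets and some myeloid cells) had 2.68 to 4.26 CPM at 10 weeks, and 0 to 1.45 and 0.607 to 1.197 CPM at 18 and 22 weeks (adjusted p = 0.00145). Clec11a (osteolectin, a secreted growth factor of bone-forming stroma) had 27.0 ± 3.37 CPM at 10 weeks and 6.42 ± 2.38 CPM at 22 weeks (SD, n = 5 each, adjusted p = 0.000432). These 3 genes shared a level at 10 weeks that lay above every sample of 18 and 22 weeks. The macrophage marker sum was also highest at 10 weeks, with 2852 to 3437 CPM against 1732 to 2740 CPM at 18 and 22 weeks, and its part in these results was not tested.

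Clec2f, a Clr gene annotated as a transcribed pseudogene in the reference strain, had 0 to 0.0819 CPM in NOR at 6 weeks and 0.229 to 0.416 CPM at 14 weeks, with no overlap between those ages (adjusted p over the ages 0.00116). Its log2 difference of all later ages from 6 weeks was 2.83 ± 0.56 and had the smallest p of the members, but did not pass (adjusted p = 0.0621). Clec2g had the pattern given above, and passed over the ages (adjusted p = 0.00923). The 18-week library of NOR mouse 5 had no count of Clec2f, Clec1b or Clec2g and was the lowest of its age for them. Without it the test over the ages called 7 members, and without the 18-week library of mouse 4 it called 5.

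In nonprogressors, 10 to 22 weeks were compared with 6 weeks over both batches, with batch as a covariate. Clec2f and Clec16a rose, and Clec11a, Clec3b, Clec14a, Clec1a and Clec9a fell. That is 7 of 24 members, beside 24.1% of 21138 genes (9.88% higher and 14.2% lower), so the share of members was near the background. The median log2 change was −0.24 for the members and −0.03 for all genes. All 3 tested members of the stromal, endothelial and secreted group fell, as did 2 of 6 in the dectin-1 region. None of the 7 tested members of the dectin-2 region passed. These groups are small, and differences between roles were not tested. Without nonprogressor 1, 3 members passed (Clec2f, Clec16a and Clec11a), and without the batch term 14 did. The shares of all genes under these settings are not given here. Without the 22-week libraries 5 passed, with Clec3b (−0.71, adjusted p = 0.178) and Clec9a (−0.41, adjusted p = 0.0973) no longer among them.

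In progressors, −5 weeks to onset were compared with 6 weeks of age in the same way. Clec2f, Clec7a, Clec16a, Clec2i and Clec4d rose and Clec11a, Clec14a and Clec3b fell, which is 8 of 24 members beside 39.5% of 21279 genes (19.6% higher and 19.9% lower). The share of members was thus no larger than the background. The median log2 change was −0.11 for the members and 0.01 for all genes. Clec2f, Clec16a, Clec11a, Clec14a and Clec3b passed in both nonprogressors and progressors.

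Clec2f had the largest change in both. At 6 weeks nonprogressors had 0.0287 to 0.153 CPM in batch 1 (n = 4) and 0.0250 to 0.121 CPM in batch 2 (n = 7), and at 14 weeks 0.0638 to 0.462 CPM (n = 4) and 0.223 to 0.641 CPM (n = 6). Progressors had 0 to 0.0697 CPM in batch 1 and 0.0251 to 0.199 CPM in batch 2 at 6 weeks, and 0.228 to 0.545 CPM and 0.453 to 0.940 CPM at onset (n = 5 each). Onset lay above 6 weeks in every sample of both batches. The log2 change was 2.32 ± 0.37 in nonprogressors (adjusted p = 6.87e-05) and 2.16 ± 0.29 in progressors (adjusted p = 6.02e-08). The gene had at most 36 counts in a library, and reads of its Clr neighbours could be counted on it, so its level is uncertain.

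Clec16a, which despite its name is an endolysosomal membrane protein of mitophagy and lies in a region linked to type 1 diabetes in people, changed little but steadily. Nonprogressors of batch 1 had 65.0 to 69.7 CPM at 6 weeks and 93.8 to 99.6 CPM at 14 weeks (n = 4 each), and those of batch 2 had 59.3 to 74.6 CPM (n = 7) and 73.7 to 91.1 CPM (n = 6). Progressors of batch 2 had 60.9 to 77.1 CPM at 6 weeks and 99.5 to 123 CPM at onset, with no overlap. Those of batch 1 had 67.1 to 96.6 and 81.1 to 137 CPM, which overlapped. The log2 change was 0.32 ± 0.07 in nonprogressors (adjusted p = 0.00115) and 0.37 ± 0.06 in progressors (adjusted p = 6.05e-06). It passed within each batch in both conditions.

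Clec7a (dectin-1, the receptor for fungal beta-glucan) was higher at every later time than at 6 weeks in the progressor medians of both batches, with its highest batch 1 median at −5 weeks. Progressors had 54.2 to 71.9 CPM at 6 weeks in batch 1 and 57.6 to 90.0 CPM in batch 2. At −5 weeks they had 119 to 162 and 103 to 208 CPM, above every 6-week progressor. At onset the level was 52.8 to 139 CPM in batch 1, which overlapped with 6 weeks, and 138 to 195 CPM in batch 2, which did not. The log2 change from 6 weeks was 0.83 ± 0.13 (adjusted p = 2.10e-06), and it passed within each batch, with 0.77 in batch 1 and 0.88 in batch 2. In nonprogressors the change was 0.36 ± 0.18 and did not pass (adjusted p = 0.151), while batch 2 alone gave 0.66 (adjusted p = 0.00712). The reference annotation lists Clec7a as a polymorphic pseudogene, since some mouse strains differ in it.

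Clec2i (Clr-g, a ligand of natural killer cell receptors) had 1.05 to 2.59 CPM at 6 weeks in progressors of batch 1 and 2.84 to 3.97 CPM in batch 2. At onset it had 3.54 to 7.57 and 5.28 to 11.2 CPM, above 6 weeks in every sample of both batches. The log2 change over −5 weeks to onset was 0.75 ± 0.20 (adjusted p = 0.00226). Within batch 1 it was 1.11 (adjusted p = 0.0223) and within batch 2 it was 0.45 (adjusted p = 0.111). In nonprogressors it was −0.16 ± 0.20 (adjusted p = 0.610). Clec4d rose by 0.42 ± 0.16 (adjusted p = 0.0311), from 11.5 to 35.4 CPM at 6 weeks in batch 1 to 25.1 to 59.7 CPM at −5 weeks. The change of Clec4d was 0.86 in batch 1 and 0.05 in batch 2, and its call was lost in 7 of 18 other settings.

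**Figure D3:**
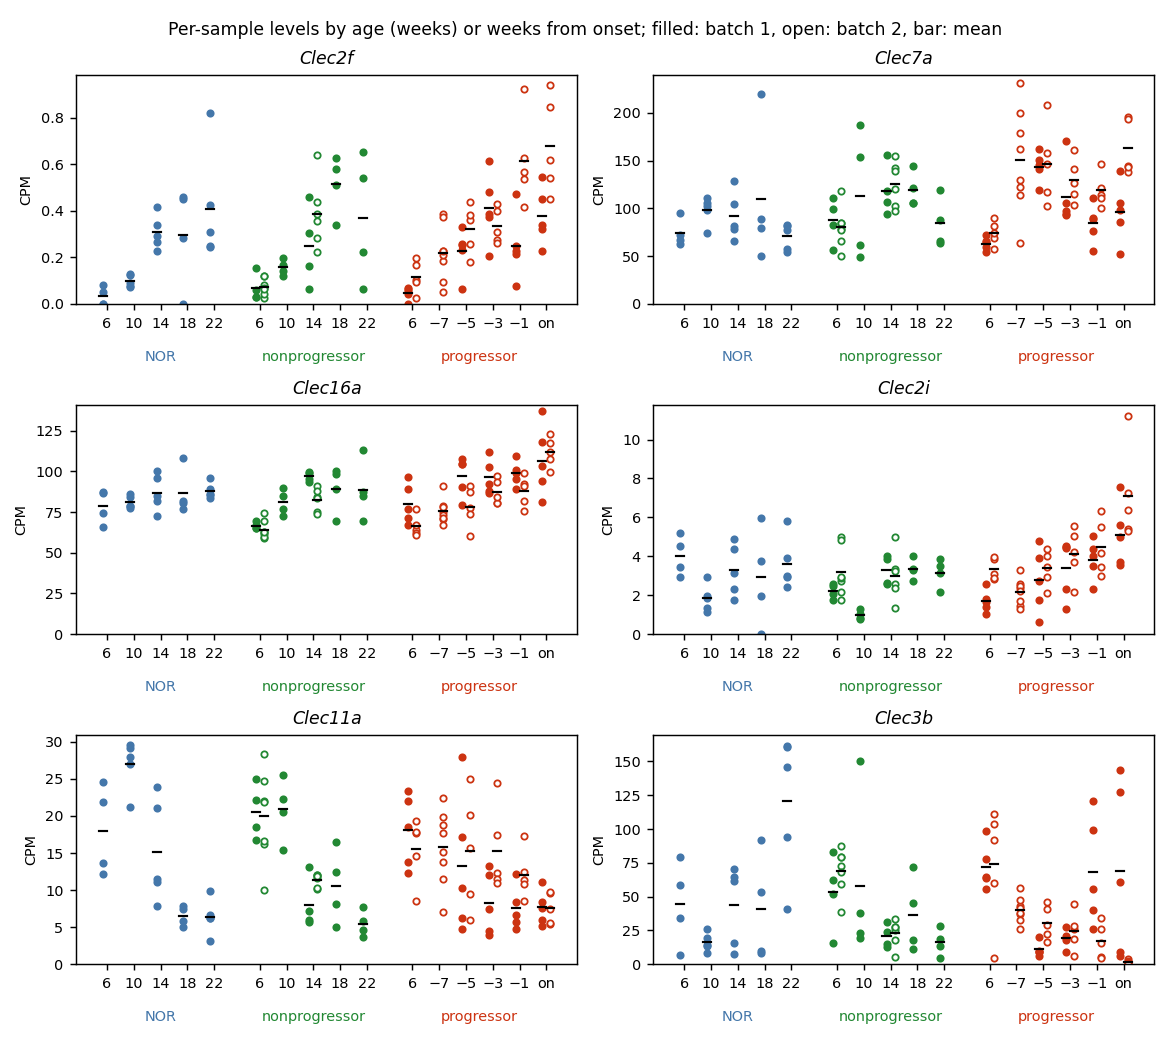
CPM of 6 members in each sample by condition and time, with age in weeks for NOR and nonprogressors and weeks from onset for progressors (on, onset); filled points are batch 1, open points batch 2 and lines are means. The means of Clec2f are lowest at 6 weeks in all 3 conditions, Clec2i is highest at onset in batch 2 and Clec3b is near 0 there.

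The 3 tested stromal and endothelial members were lower after 6 weeks in both NOD conditions. Clec11a had 16.7 to 24.9 CPM at 6 weeks and 3.65 to 7.67 CPM at 22 weeks in nonprogressors of batch 1, without overlap, though those 22-week libraries had the high share of Rn7s2. Its log2 change was −0.88 ± 0.18 in nonprogressors (adjusted p = 0.0008), or −0.57 without the 22-week libraries (adjusted p = 0.0292), and −0.71 ± 0.20 in progressors (adjusted p = 0.00353). In progressors it had 12.4 to 23.4 CPM at 6 weeks and 5.13 to 11.2 CPM at onset in batch 1, again without overlap. Among those onset libraries, the ones of mice 3 and 5 had high shares of Rn7s2. Within batch 2 the change in progressors was −0.38 (adjusted p = 0.236).

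Clec3b fell by 1.00 on the log2 scale in nonprogressors (SE 0.37, adjusted p = 0.0442) and by 1.46 in progressors (SE 0.44, adjusted p = 0.00701). The nonprogressor call was lost in 11 of 20 other settings (adjusted p up to 0.257), and the progressor call in none of those run. In progressors of batch 1 it had 55.7 to 98.7 CPM at 6 weeks, 5.92 to 20.5 CPM at −5 weeks, 26.4 to 121 CPM at −1 week and 6.00 to 144 CPM at onset. In batch 2 it had 4.72 to 111 CPM at 6 weeks, 16.5 to 45.8 CPM at −5 weeks, 4.40 to 34.6 CPM at −1 week and 0.623 to 3.86 CPM at onset. In batch 1 the median was lowest at −5 weeks (9.34 CPM) and samples of −1 week and onset spread widely, whereas in batch 2 every onset sample lay below every sample of an earlier time. From −5 weeks on, the log2 change was 2.04 in batch 1 (adjusted p = 0.0765) and −1.69 in batch 2 (adjusted p = 0.109). Neither passed, and the difference between batches was not tested. The batch 1 value was added after the data were seen.

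Clec14a (an endothelial receptor of sprouting vessels that binds Mmrn2) fell by 0.88 in nonprogressors (SE 0.29, adjusted p = 0.0287) and by 0.86 in progressors (SE 0.26, adjusted p = 0.00627). In progressors of batch 2 it had 5.05 to 26.9 CPM at 6 weeks and 1.33 to 6.44 CPM at onset. In batch 1 it had 15.9 to 31.3 and 6.00 to 28.2 CPM. Clec1a, another endothelial lectin, fell by 0.67 in nonprogressors (SE 0.22, adjusted p = 0.0243), and its change in progressors was −0.33 (adjusted p = 0.194). Clec9a (DNGR-1, which detects exposed actin of dead cells on cross-presenting dendritic cells) fell by 0.46 in nonprogressors (SE 0.17, adjusted p = 0.0447). Without the 14-week sample of nonprogressor replicate 5 it was −0.43 and did not pass (adjusted p = 0.0564). It was 0.06 within batch 2, the opposite sign, and −0.69 within batch 1. The annotated ends of Clec9a and Clec1b overlap on the same strand, so reads there may be counted on either.

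Marker sums moved with these results. Endothelial markers (6 genes) had medians of 240 to 306 CPM in the NOD groups and batches at 6 weeks and of 71.9 to 306 CPM at the later times compared, with the lowest at onset in batch 2. Fibroblast markers had medians of 32004 to 44896 CPM at 6 weeks and of 8623 to 29481 CPM later, again lowest at onset in batch 2. Their part in the changes of Clec14a, Clec1a, Clec3b and Clec11a was not tested. Clec10a did not pass in any comparison over time (over the NOR ages it passed with DESeq2, adjusted p = 0.0261, and with the mouse as a block, adjusted p = 0.0409). At 6 weeks its level was 8.45 to 29.3 CPM in the 9 NOD samples of batch 1 and 28.9 to 56.0 CPM in 11 of the 12 of batch 2. The remaining one, of progressor 7, had 4.08 CPM. That sample also had the lowest Clec3b and endothelial marker sum (42.1 CPM) of the 6-week progressors. Without it 9 members passed in progressors in place of 8, with Clec2d added (−0.37, adjusted p = 0.0452).

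**Figure D4:**
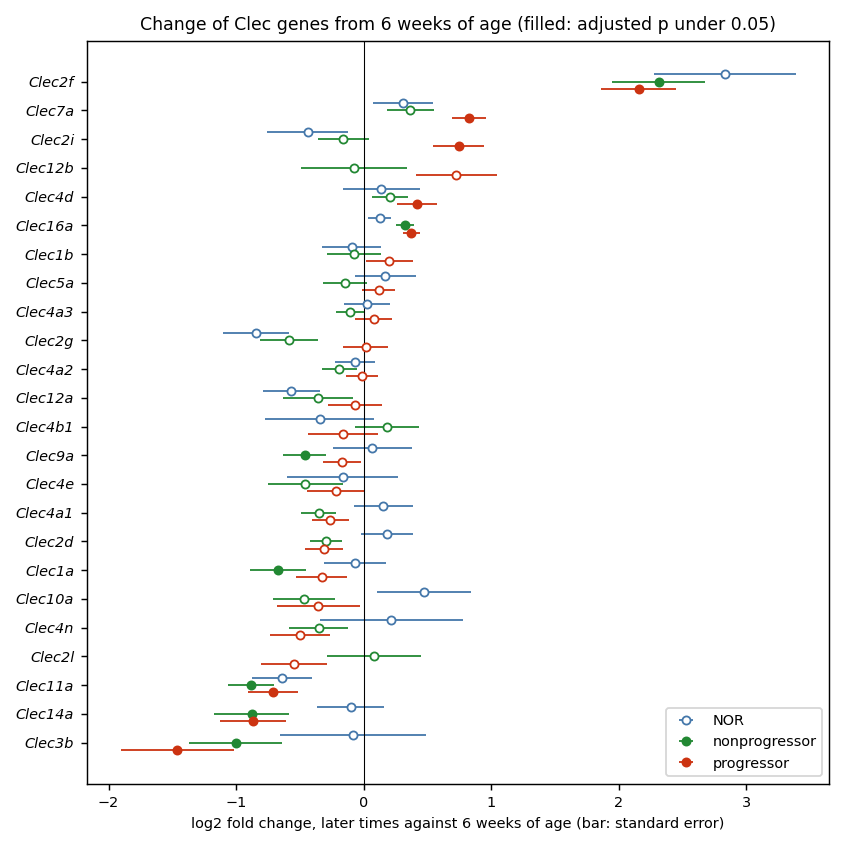
Log2 fold change ± SE of the members tested, later times against 6 weeks of age, in NOR, nonprogressors and progressors; filled points have an adjusted p under 0.05. Clec2f is far to the right in all 3 conditions, and Clec3b is far to the left in the NOD conditions and near 0 in NOR.

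Within the progressors, −5 weeks to onset were compared with −7 weeks, the step at which the study looked for an early turn of disease. Clec2i, Clec2f and Clec16a rose, which is 3 of 24 members beside 3.89% of 21279 genes (1.98% higher and 1.91% lower). Clec2i had 1.31 to 3.31 CPM at −7 weeks (median 2.28, n = 8), and in batch 2 it had 2.11 to 4.40 CPM at −5 weeks (median 3.44) and 5.28 to 11.2 CPM at onset (median 6.37, n = 5 each). Every onset sample of both batches lay above every −7 sample. The log2 change was 1.13 ± 0.24 (adjusted p = 0.00500). Clec2f had 0.0532 to 0.385 CPM at −7 weeks, which overlapped with −5 weeks (0.178 to 0.437 CPM) but not with onset (0.453 to 0.940 CPM) in batch 2, and its change was 1.11 ± 0.29 (adjusted p = 0.0196). Clec16a had 66.7 to 91.2 CPM at −7 weeks and 99.5 to 123 CPM at onset in batch 2, a change of 0.24 ± 0.07 (adjusted p = 0.0474). The call was lost in 11 of 16 other settings for Clec16a, in 4 of 16 for Clec2f and in 1 of 16 for Clec2i. Since −7 samples exist only in batch 2, batch 2 alone was also fitted and gave 5 calls. That fit held no later samples of progressors 1 to 4, whose −7 samples are in batch 2 and other samples in batch 1. Without progressor 2 or progressor 6 only Clec2i passed. With each mouse as a block none passed, and the adjusted p was 0.143 for Clec2i, 0.217 for Clec2f and 0.150 for Clec16a.

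From −5 weeks on, no member passed among 24, beside 0.385% of 21279 genes (0.0517% higher and 0.334% lower). With an unadjusted p under 0.05 there were 12 members, and DESeq2 called 2. The share of all genes at that unadjusted level was not counted, so 12 of 24 cannot be read as an excess. The smallest p was that of Clec12a, with a log2 change of −0.82 and an adjusted p of 0.0539. It passed without progressor 7 (−0.91, adjusted p = 0.0436) and, with Clec4a2 and Clec7a, without progressor 10 (−0.98, adjusted p = 0.00969). It had 21.8 to 76.7 CPM at −5 weeks and 9.06 to 24.96 CPM at onset in batch 1, and 23.02 to 108 and 26.4 to 57.3 CPM in batch 2. The samples of both times overlapped in each batch.

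The differences between these courses were tested as interactions. For the change with age, NOR against nonprogressors of batch 1, none of 23 members passed (0 percent of 20647 genes, edgeR), with 2 at an unadjusted p under 0.05. The smallest p was that of Clec16a, whose rise was larger in nonprogressors by 0.30 (adjusted p = 0.798). For progressors against nonprogressors none of 24 passed (0 percent of 22722 genes, edgeR), with 1 at an unadjusted p under 0.05. This was Clec2i, whose change was higher in progressors by 0.80 (adjusted p = 0.577). The courses of Clec2i and Clec7a were thus not shown to differ between progressors and nonprogressors.

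The signalling partners of the myeloid receptors were taken as a list of 16 genes (Fcer1g, Tyrobp, Hcst, Syk, Card9, Bcl10, Malt1, Plcg2, Vav1, Prkcd, Src, Lyn, Fgr, Ptpn6, Ptpn11 and Inpp5d). In progressors 8 of 16 rose after 6 weeks and 1 fell (Ptpn11, a phosphatase), with a list median of 0.23, and in nonprogressors 6 rose and none fell, with a median of 0.19. Of all genes 19.6% rose and 19.9% fell in progressors, and 9.88% rose in nonprogressors. Card9, the adaptor downstream of Syk, rose by 0.49 ± 0.08 in progressors (adjusted p = 1.61e-06) and Fcer1g, the chain that carries dectin-2 and Mincle signals, by 0.39 ± 0.14 (adjusted p = 0.0175). None of the 16 passed from −7 or from −5 weeks on. Between strains only Inpp5d, an inositol phosphatase, passed, at −0.19 (adjusted p = 0.00965), which is 1 of 16 beside 8.98% of all genes.

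Of 8 binding partners of Clec proteins, 7 were tested. In progressors Klrb1a and Klrb1c, receptors of the NKR-P1 family that bind Clr ligands or resemble those that do, rose by 1.42 ± 0.18 and 1.01 ± 0.16 (adjusted p = 1.72e-08 and 1.09e-06), and Sap130, a ligand of Mincle, fell by 0.16 (adjusted p = 0.0311), which is 3 of 7 beside 39.5% of all genes. T cell and B cell markers moved in the same comparison, where 5 of 6 of each rose (medians 1.06 and 1.86), and 1 of 6 natural killer cell markers, Klrb1c itself, did. The part of these cells in the changes of the Klrb1 genes and the adaptors was not tested. Podoplanin (Pdpn), the ligand of Clec1b, was higher in NOD than in NOR by 0.45 ± 0.11 (adjusted p = 0.0206). It rose from −7 weeks by 0.72 ± 0.20 (adjusted p = 0.0313). In each of these comparisons it was the only call, 1 of 7 partners tested, beside 8.98% and 3.89% of all genes. Of 31 other C-type lectins, 27 were tested between strains and 3 passed (beside 8.98% of all genes), of which Mgl2 was higher in NOD and Asgr2 and Thbd were lower. In progressors 25 were tested after 6 weeks, and 7 rose and 2 fell, a share below the 39.5% of all genes. Mgl2 was among them, at 1.67 ± 0.32 (adjusted p = 3.27e-05).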

How the data were processed

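Bulk RNA sequencing of scaffold biopsies gave 2 gene tables, 1 per batch. Per the study's methods and the submitters' processing notes, the authors trimmed reads with cutadapt, aligned them with STAR and estimated counts per gene with RSEM (GRCm38), with FastQC and MultiQC for quality. The deposited expected counts are whole numbers and were used as such.

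Genes passing edgeR's filterByExpr were tested in edgeR 4.0.16 (R 4.3.3, TMM scaling, quasi-likelihood test) across the whole table, with Benjamini-Hochberg adjustment over all genes tested and a threshold of 0.05. DESeq2 1.42.0 was an alternative. In the comparison of strains, biopsies were summed to 1 library per mouse. CPM are counts scaled by TMM over all libraries, and every adjusted p is from edgeR unless DESeq2 is named. In simulated data, a set of genes was shifted by a log2 difference of 1. The test recovered 77.7% of the changed genes for the strains (23150 genes) and 86.7% at 6 weeks (18925 genes). It recovered 79.1% for nonprogressor age (20788 genes) and 74.1% for NOR age (19393 genes), with 4 to 10 false calls. The simulated counts held no batch effect and no effect shared by samples of a mouse. Smaller shifts and the comparisons over time in progressors were not simulated, so these rates do not cover them.

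Every Clec member is named at least once, some of them only by level, and members past the threshold, or else the member with the smallest p, are given in full. The members, marker lists and partner lists were chosen with earlier results of these data known. Coordinates and exon lengths are those of GENCODE M21 (GRCm38). Mouse numbers in the labels tie samples to an animal, and deviations from the group mean correlated by −0.0216 (NOR), 0.00819 (nonprogressors) and 0.00153 (progressors) on average between samples of the same mouse (2000 genes). No 2 samples of a group held the same counts (239 pairs, lowest chi-square per degree of freedom 11.97). All columns had a sample. Some genes of the partner and other lectin lists are not reported here and were left out of their counts.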

Additional observations from a re-analysis of the deposited data

Results flagged for a closer look

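The highest or lowest value in groups of 4 to 10 was set against the others by Dixon's criterion, with batches pooled. This covered the summed Clec level in each group and, over mice, the members called between strains. Members called over time in nonprogressors or progressors were screened in NOD groups only, and other members were not screened. A value stood apart in 6 of 125 groups, where chance gives about 5%. At 14 weeks, nonprogressor replicate 5 (batch 2) had 1.10 CPM of Clec14a and 5.18 CPM of Clec3b, and the next lowest samples had 8.99 and 12.97 CPM. At 6 weeks, progressor replicate 7 (batch 2) had 4.72 CPM of Clec3b, against 55.7 CPM in the next. At 22 weeks, nonprogressor replicate 3 had 6.77 CPM of Clec1a, above the next highest at 3.04 CPM. At −5 weeks, progressor replicate 1 (batch 1) had 0.0643 CPM of Clec2f and 0.643 CPM of Clec2i, below the next lowest at 0.178 and 1.73 CPM.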

How the results depend on the processing

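Of the tests of named members under other settings, 467 kept their direction and side of the threshold, 95 lost the call, 3 gained it and 1 reversed, which was Clec9a in nonprogressors within batch 2 (0.0634). Between strains 5 members passed, which became 3 without the filter on low counts, 3 with nonprogressors alone, 3 with both batches and a batch term, 4 with each sample apart, 7 with DESeq2 and 1 with 6-week samples alone (Clec2i, lower in NOD). Leaving out 1 mouse gave 2 to 5 members between strains, 4 to 5 over the NOR ages, 3 to 8 in nonprogressors, 7 to 9 in progressors, 1 to 4 from −7 weeks and 0 to 3 from −5 weeks. DESeq2 called 9 members over the NOR ages, 5 from −7 weeks and 2 from −5 weeks. Without a batch term 14 passed in nonprogressors and 6 from −7 weeks, and batch 2 alone gave 5 from −7 weeks. With the mouse as a replicate block, which the numbers in the labels allow, 0 passed from −7 weeks, 7 over the NOR ages, 8 in nonprogressors and 9 in progressors, and no other count of calls changed. The causes were not tested. For these counts, here and in the paragraphs above, the share of all genes called under each setting is not given. They are therefore not set against a background. Single left-out libraries, the 22-week nonprogressors left out (4 members between strains, 5 in nonprogressors) and batch 1 alone from −5 weeks were chosen after seeing the data. Members with 91 counts or fewer in all were not tested.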

Other observations

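Clec genes were also measured in 6 nonprogressor samples of batch 1 that are labelled only by days after implantation and entered no comparison. Clec7a had 144 and 171 CPM at 31 days, 147 and 182 CPM at 38 days and 150 and 136 CPM at 108 days. Clec12a had 38.5 and 56.2, 82.3 and 102, and 64.7 and 47.7 CPM in the same samples. Among the stromal members, Clec11a had 19.7 and 18.4 CPM at 31 days, 20.1 and 25.5 at 38 days and 27.9 and 30.6 at 108 days, and Clec3b had 70.9 and 45.9, 55.3 and 15.03, and 49.8 and 54.2 CPM. Clec2f had 0.232 and 0.301 CPM, 0.264 and 0.339 CPM, and 0.537 and 0.695 CPM. The ages of these mice are not given by the labels used here.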
